A study of Mus musculus with 16 samples.

Results

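Gasdermins and the proteins that cut or accompany them were followed in the ileum of WT and fat-1 mice fed EtOH or pair-fed (PF). The set was 10 genes of the 21965 in the count table, chosen by name with earlier results of these data known. It held the gasdermins Gsdmc, Gsdmc2, Gsdmc3, Gsdmc4 and Gsdmd, the caspases Casp1, Casp4 and Casp8, the adaptor gene Pycard and the cytokine gene Il18. Of these, 9 passed the filter on low counts, as did 13811 genes of the whole table. The exception was Gsdmc, with 1 read in total, in fat-1 EtOH mouse 3. Averaged over genotypes, the RNA of Gsdmc2, Gsdmc3 and Gsdmc4 was 5.29-, 6.06- and 4.52-fold higher in EtOH than in PF mice, and that of Gsdmd, Il18 and Pycard was 2.39-, 2.94- and 1.32-fold lower. Without 5 libraries that stood apart in genes of gut position, these folds were 2.49, 4.18 and 2.63 (higher) and 2.06, 2.81 and 1.31 (lower). These 6 genes passed the edgeR test averaged over genotypes, as 35.9% of all genes tested did. In WT mice alone 0 of the 9 passed it (0.0796% of all genes). Casp1, Casp4 and Casp8 did not pass the test in any comparison.

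Gasdermins are held inactive by their own carboxy-terminal domain, and a protease cut frees the amino-terminal domain, which forms pores in the cell membrane. In the classical inflammasome pathway a sensor protein and the adaptor ASC, which Pycard encodes, activate caspase-1, which cuts gasdermin D and the precursors of interleukin-18 (IL-18) and interleukin-1β. The caspase that Casp4 encodes in mice, also called caspase-11, responds to bacterial lipopolysaccharide and cuts gasdermin D directly, and caspase-8, an initiator of apoptosis, can cut gasdermins as well. In the gut, epithelial cells make IL-18 and gasdermin D, and the Gsdmc genes are known as epithelial genes that rise with type 2 cytokines acting through STAT6.

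The mice were male littermates on the C57BL/6 background, 8 to 10 weeks old at the start, either WT or heterozygous carriers of the fat-1 transgene, a C. elegans n3 fatty acid desaturase made in all tissues (the sample descriptions write the genotype as Fat1+/-). All were fed Lieber-DeCarli liquid diets for about 6 weeks. EtOH was raised through 1, 2, 4 and 5% (v/v) to 6% for the last 3 weeks, and PF mice received the isocaloric diet with maltose dextrin in place of EtOH. The PF mice were given the amount that EtOH mice had eaten the day before. Poly(A) RNA of a 1.5 cm piece of terminal ileum was sequenced, with 1 library per mouse. There were 4 WT and 4 fat-1 mice on the PF diet and 3 WT and 5 fat-1 mice on EtOH. Tests therefore set differences against the spread between mice. In the main fit, all 4 groups shared 1 estimate of that spread for each gene. The transgene is not a row of the count table, and the genotype labels were not checked with it.

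Between 8422645 and 11438539 reads were counted per library. Levels are given as CPM, the reads of a gene relative to the library's total after scaling by TMM, and 3 reads were 0.246 to 0.421 CPM. All 10 epithelial marker genes passed the filter, and their summed level was 11662 to 21661 CPM in the 16 libraries. Some libraries stood apart in genes that mark a position along the gut. The summed level of 8 genes of the proximal small intestine was 11206 and 11334 CPM in fat-1 PF mice 2 and 4, 319 to 3536 CPM in the other PF mice and 137 to 208 CPM in EtOH mice. That of 7 large intestine genes was 11510 and 12459 CPM in fat-1 EtOH mice 3 and 4, 4421 CPM in WT EtOH mouse 2 and 12.8 to 123 CPM elsewhere. Calls are therefore also given without these 5 libraries, though the diets do not overlap in the proximal genes without them either. PF libraries were numbered 1 to 8 and EtOH libraries 9 to 16, so that library order and diet cannot be told apart.

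The 4 Gsdmc genes lie side by side on chromosome 15 of GRCm38, all protein coding and on the minus strand. Gsdmc spans chr15:63775968-63808759, Gsdmc2 chr15:63824346-63845177, Gsdmc3 chr15:63857724-63878558 and Gsdmc4 chr15:63891264-63912297. They are near copies, which decides how well reads can be divided between them, so the first 90 coding bases of each are shown (GENCODE M21, each within 1 exon), with bases that differ from Gsdmc4 in capitals.
Gsdmc4: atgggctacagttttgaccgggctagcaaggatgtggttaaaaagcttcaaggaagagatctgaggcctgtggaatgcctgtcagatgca
Gsdmc2: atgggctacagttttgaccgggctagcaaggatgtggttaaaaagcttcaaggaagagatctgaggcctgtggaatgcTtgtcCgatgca
Gsdmc3: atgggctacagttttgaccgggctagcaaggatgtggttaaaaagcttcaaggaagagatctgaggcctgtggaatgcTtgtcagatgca
Gsdmc: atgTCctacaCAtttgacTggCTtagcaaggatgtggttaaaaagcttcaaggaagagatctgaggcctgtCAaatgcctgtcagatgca
The first difference of Gsdmc2 and of Gsdmc3 from Gsdmc4 is at coding base 79, so that a 75-base read lying within the first 78 coding bases is the same in all 3. Gsdmc differs at 9 of these 90 bases. Over the aligned coding sequence the identity was 97.1% between Gsdmc2 and Gsdmc3, whose longest identical run was 317 bases, 93.8% between Gsdmc4 and Gsdmc3 and 93.7% between Gsdmc4 and Gsdmc2. Between Gsdmc and these genes it was 86.7 to 87.5%.

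The genes can be told apart elsewhere. The coding stretch of 60 bases in which Gsdmc2 and Gsdmc3 together differ most from Gsdmc4 starts at coding base 791 of Gsdmc4 and 785 of the others and crosses 3 exons. The capitals again mark differences from Gsdmc4, 13 in Gsdmc2 and 11 in Gsdmc3.
Gsdmc4: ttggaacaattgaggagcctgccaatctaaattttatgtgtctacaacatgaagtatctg
Gsdmc2: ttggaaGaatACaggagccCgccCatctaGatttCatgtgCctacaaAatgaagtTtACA
Gsdmc3: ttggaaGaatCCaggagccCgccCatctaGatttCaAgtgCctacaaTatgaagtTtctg
Of all 75-base windows of their transcripts, 39.3% of Gsdmc2, 35.8% of Gsdmc3, 28.5% of Gsdmc4 and 10.9% of Gsdmc were also found in another gene of the family. The share of reads that the counting gave to each of Gsdmc2, Gsdmc3 and Gsdmc4 is therefore uncertain, and their sum is given beside them. The shared windows of Casp8 were 1.95%, all with the predicted gene Gm20257, and Gsdmd, Casp1, Casp4, Il18 and Pycard had none. Pycard shares 485 exon bases with a gene on the opposite strand, and whether the counting used the strand is not given in the sources used here.

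Per kilobase of exon, the order of the genes differed between diets. The length used was that of all annotated exons of a gene merged. It was 3800 bases for Pycard and 3710 for Casp4, whose coding sequences are 582 and 1122 bases. The order between genes within a group depends on these lengths, and other lengths were not tried. In WT PF mice Gsdmd stood highest at 216 ± 57.3 CPM per kb (SD, n = 4), followed without overlap by Casp1 at 123 ± 8.33 CPM per kb. Pycard (78.7), Il18 (76.5) and Casp8 (58.0) came next, each overlapping its neighbour, and below them without overlap Gsdmc4 (37.5), Gsdmc2 (20.8), Casp4 (12.05) and Gsdmc3 (7.24). In WT EtOH mice Gsdmc4 stood first at 139 ± 40.3 CPM per kb (SD, n = 3), overlapping Gsdmd at 117 ± 31.3, and Casp1 and then Gsdmc2 came next, the latter at 85.2 ± 36.8. In fat-1 PF mice Gsdmd led at 299.6 ± 88.04 CPM per kb (SD, n = 4), above Il18 at 129 ± 26.9 without overlap. In fat-1 EtOH mice Casp1 led at 109.96 ± 13.5 CPM per kb (SD, n = 5), and Gsdmd (96.9), Gsdmc4 (85.9) and Gsdmc2 (63.0) followed, each overlapping the next. In bulk tissue, fewer cells of a type and less RNA per cell cannot be told apart, here or in any value that follows.

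**Figure D1:**
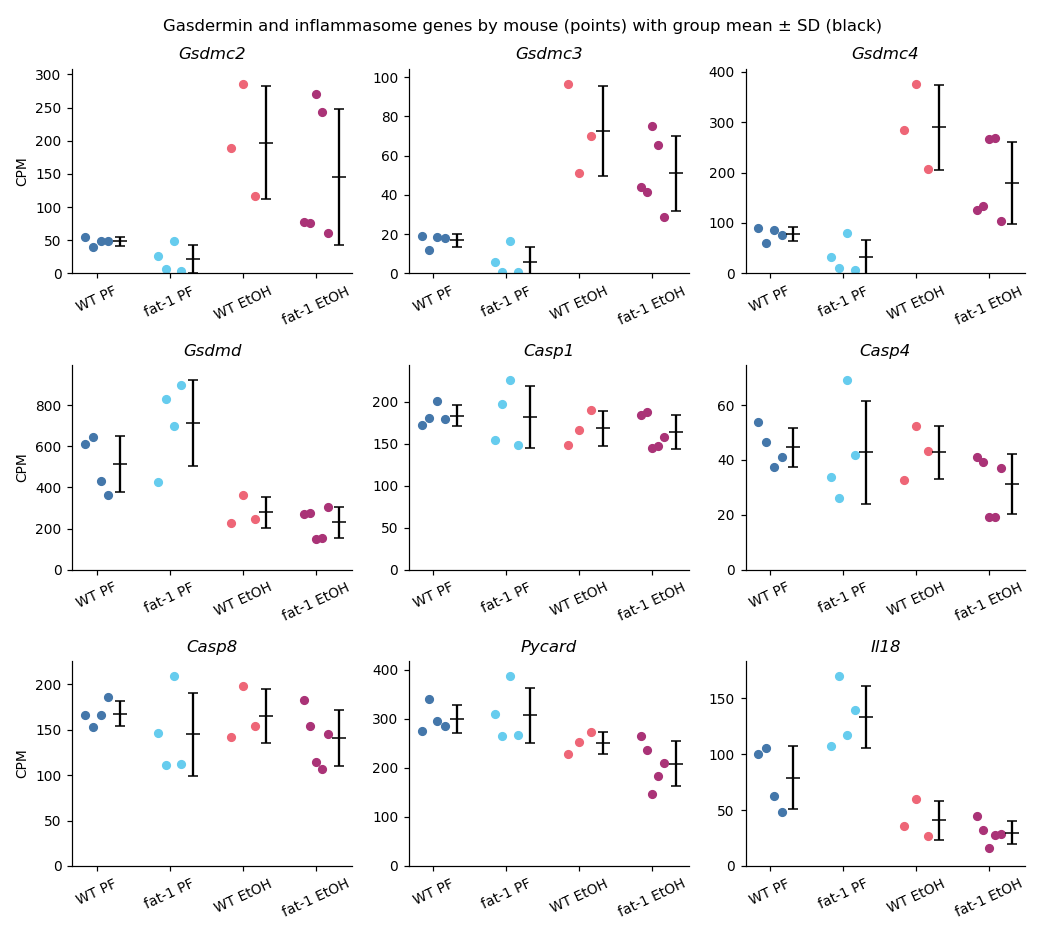
CPM of each of the 9 genes past the filter (vertical axes, from 0) in the 4 groups (horizontal axes). Each point is 1 mouse and the black bar is the group mean with its SD, which for 3 genes in fat-1 PF mice reaches below 0 or close to it. All EtOH points of Gsdmc2, Gsdmc3 and Gsdmc4 lie above all PF points, and all EtOH points of Gsdmd lie below all PF points.

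Gsdmc4 led the family per kilobase in each group. Its level was 90.2, 59.6, 86.3 and 77.0 CPM in the WT PF mice and 285, 376 and 208 CPM in the WT EtOH mice. In fat-1 mice it was 32.1, 11.37, 80.5 and 5.89 CPM on the PF diet and 125, 133, 266, 268 and 104 CPM on EtOH. All EtOH mice lay above all PF mice in both genotypes, and fat-1 PF mouse 3 was the only fat-1 PF mouse at the WT PF level. The edgeR log2 fold change was 1.89 ± 0.62 (SE) in WT mice, 3.70-fold, with an adjusted p of 0.22, and 2.47 ± 0.59 in fat-1 mice, 5.52-fold, with an adjusted p of 0.0060.

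Gsdmc2 was at 55.0, 39.2, 49.6 and 49.1 CPM in WT PF mice and at 189, 286 and 116 CPM in WT EtOH mice. In fat-1 PF mice it was at 25.7, 6.18, 49.1 and 4.17 CPM, and in fat-1 EtOH mice at 77.0, 76.3, 270.5, 244 and 61.0 CPM. The diets again did not overlap, and fat-1 EtOH mice 3 and 4, which stood apart in large intestine genes, held the highest values of their group. The log2 fold change of Gsdmc2 was 2.03 ± 0.70 in WT mice (edgeR adjusted p = 0.24) and 2.78 ± 0.68 in fat-1 mice (edgeR adjusted p = 0.0064).

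Gsdmc3, the lowest of the 3 per kilobase, was at 18.9, 11.997, 18.7 and 17.9 CPM in WT PF mice and 96.6, 51.2 and 70.0 CPM in WT EtOH mice. In fat-1 PF mice it was at 5.62, 0.842, 16.7 and 0.859 CPM, where the values of mice 2 and 4 rest on 6 and 7 reads, and in fat-1 EtOH mice at 44.2, 41.3, 75.04, 65.6 and 28.6 CPM. Here too the diets did not overlap. The log2 fold change of Gsdmc3 was 2.11 ± 0.63 in WT mice (edgeR adjusted p = 0.19) and 3.09 ± 0.63 in fat-1 mice, 8.53-fold (edgeR adjusted p = 0.0024).

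Leaving out fat-1 PF mouse 3 raised the log2 fold changes in fat-1 mice to 3.44 for Gsdmc4, 3.59 for Gsdmc2 and 4.32 for Gsdmc3, and that of Gsdmc3 averaged over genotypes from 2.60 to 3.22. Without fat-1 EtOH mice 3 and 4 all 3 kept their calls in fat-1 mice, at 1.92 (Gsdmc4), 1.77 (Gsdmc2) and 2.70 (Gsdmc3). Without fat-1 PF mice 2 and 4 Gsdmc2 lost its call at 1.96 (edgeR adjusted p = 0.0588), while Gsdmc4 (1.67, edgeR adjusted p = 0.0359) and Gsdmc3 (2.21, edgeR adjusted p = 0.0159) kept theirs. Without all 5 libraries that stood apart, the values in fat-1 mice were 1.12 for Gsdmc4 (edgeR adjusted p = 0.0604), 0.96 for Gsdmc2 (edgeR adjusted p = 0.0578) and 1.81 for Gsdmc3 (edgeR adjusted p = 0.0265). In WT mice the same fit gave 1.66 for Gsdmc4 (edgeR adjusted p = 0.0336), 1.67 for Gsdmc2 and 2.31 for Gsdmc3 (edgeR adjusted p = 0.0206 for both).

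The summed level of Gsdmc2, Gsdmc3 and Gsdmc4 does not depend on how any shared reads were divided among them, but it would be too low, as would its ratio to Gsdmd, had the counting dropped such reads, which is not given in the sources used here. It was 164, 111, 155 and 144 CPM in WT PF mice and 571, 713 and 394 CPM in WT EtOH mice. In fat-1 mice it was 63.4, 18.4, 146 and 10.9 CPM on the PF diet and 246, 251, 611, 578 and 194 CPM on EtOH. The lowest EtOH mouse was above the highest PF mouse. Gsdmc4 gave 43.5 to 61.8% of the sum, Gsdmc2 29.5 to 44.3% and Gsdmc3 4.58 to 17.9%. Within a mouse, the ratio of the summed CPM to the CPM of Gsdmd, not scaled for gene length, was 0.0121 to 0.396 in PF mice and 0.64 to 4.16 in EtOH mice, and the diets did not overlap in it.

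**Figure D2:**
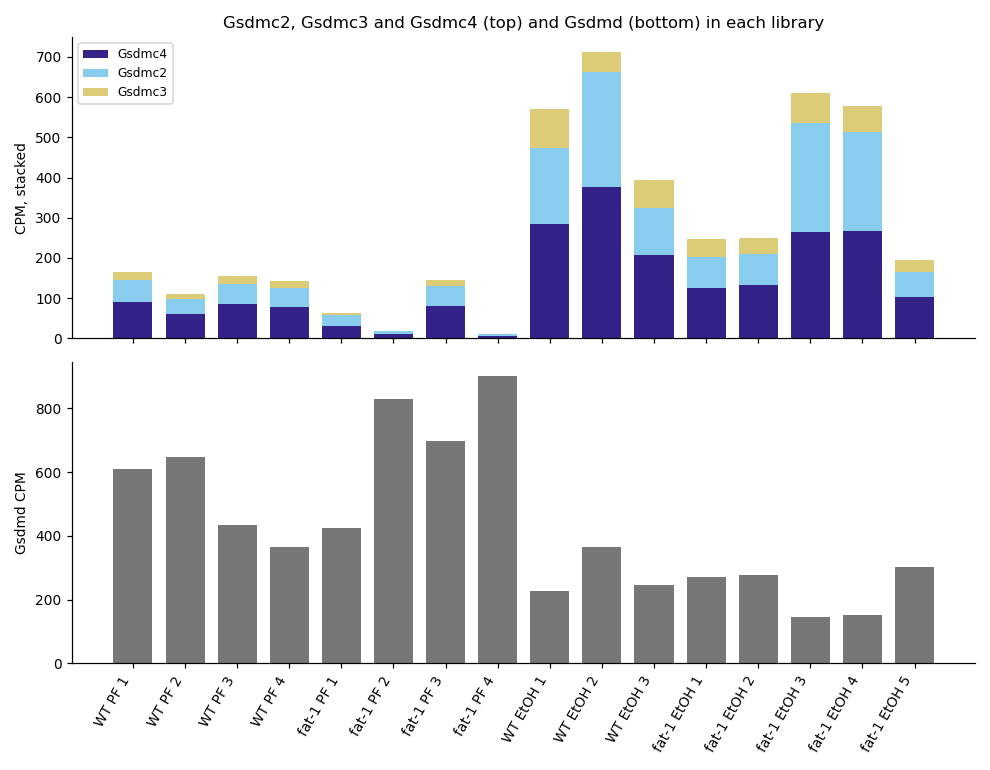
Stacked CPM of Gsdmc4, Gsdmc2 and Gsdmc3 (upper panel) and CPM of Gsdmd (lower panel) in each of the 16 libraries, ordered by group. The stacks run from 10.9 to 164 in PF and from 194 to 713 in EtOH libraries, and the 2 lowest stacks, fat-1 PF 2 and 4, stand over the 2 highest Gsdmd bars.

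Gsdmd, the executioner that caspase-1 and caspase-11 cut, moved the other way. It lies at chr15:75862327-75867408 on the plus strand. The cut falls after the last of the 4 codons in capitals, codon 276, and the fragment before it forms the pore.
Gsdmd: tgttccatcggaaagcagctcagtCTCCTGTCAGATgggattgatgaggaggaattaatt
Its level was 609, 646, 433 and 364 CPM in WT PF mice and 227, 364 and 244 CPM in WT EtOH mice. In fat-1 PF mice it was 425, 828, 696 and 899.6 CPM, and in fat-1 EtOH mice 272, 277, 147, 152 and 303 CPM. The diets did not overlap in either genotype, but in WT mice the lowest PF and the highest EtOH value were 363.83 and 363.61 CPM. Gsdmd fell by 1.63 ± 0.28 on the log2 scale in fat-1 mice (edgeR adjusted p = 0.00079), 3.09-fold. In WT mice the log2 fold change was -0.88 ± 0.32 (edgeR adjusted p = 0.25). Without the 5 libraries that stood apart these values were -0.97 in fat-1 mice (edgeR adjusted p = 0.0317) and -1.11 in WT mice (edgeR adjusted p = 0.0421).

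Il18, at chr9:50554827-50581840 on the plus strand, encodes the cytokine that caspase-1 frees from its precursor. The cut follows codon 35, the last of the 4 codons in capitals, and the mature cytokine begins after it.
Il18: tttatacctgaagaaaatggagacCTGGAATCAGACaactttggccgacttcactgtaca
Il18 stood at 99.7, 106, 62.3 and 47.9 CPM in WT PF mice and at 107, 169.6, 117 and 139 CPM in fat-1 PF mice. On EtOH it was at 35.4, 60.04 and 27.1 CPM in WT mice and at 44.9, 31.9, 16.2, 27.7 and 28.7 CPM in fat-1 mice. All fat-1 EtOH mice lay below all fat-1 PF mice, whereas WT EtOH mouse 2 lay above WT PF mouse 4. Il18 fell by 2.16 ± 0.31 on the log2 scale in fat-1 mice, 4.46-fold (edgeR adjusted p = 0.00034), and its log2 fold change in WT mice was -0.95 ± 0.35 (edgeR adjusted p = 0.26). The difference between these responses, the interaction, was -1.20 ± 0.46 with an unadjusted p of 0.019 and an edgeR adjusted p of 0.595. Without the 5 libraries the fall in fat-1 mice was -1.66 (edgeR adjusted p = 0.0181), and the interaction ranged from -1.43 to -0.33 over all settings tried.

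Promoter sequence was at hand for Il18, Pycard, Casp1, Casp4, Casp8 and Gsdmc3 (RefSeq, GRCm38.p6). In the 250 bases before each start, 4 patterns were searched on both strands, namely TTC and GAA with 4 bases between them (STAT6), GAAA and GAAA with 2 bases between them (interferon response element), TTTATNG (CDX2) and GGGA and CC with 4 bases between them (NF-kB). Of 32851 promoters, 5.85% held the first, 2.98% the second, 9.81% the third and 17.6% the fourth. Il18 held the STAT6 pattern 46 bases before its RefSeq start, in capitals in chr9:50554450-50554699 (plus strand). That start directly follows the window and lies upstream of the GENCODE start given above. This window is shown because Il18 had the largest fall of the 10 genes in fat-1 mice.
Il18 promoter: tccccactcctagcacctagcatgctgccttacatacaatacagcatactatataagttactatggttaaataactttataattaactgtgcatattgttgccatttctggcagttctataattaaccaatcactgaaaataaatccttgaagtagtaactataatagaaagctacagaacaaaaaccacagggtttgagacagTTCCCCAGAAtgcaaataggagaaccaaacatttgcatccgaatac
Casp4 held the NF-kB pattern, and the windows of Gsdmc3, Casp1, Casp8 and Pycard held none of the 4. A match of letters is not a binding site, and binding was not measured.

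Pycard, the adaptor gene, is on chromosome 7 (chr7:127989708-127993867, minus strand). It was at 276, 341, 295 and 285 CPM in WT PF mice and at 229, 252 and 273 CPM in WT EtOH mice. In fat-1 mice it was at 309, 265, 387 and 268 CPM on the PF diet and at 264, 236, 148, 184 and 210.2 CPM on EtOH. The diets did not overlap within a genotype, although the highest fat-1 EtOH mouse (264.45 CPM) was within 1 CPM of the lowest fat-1 PF mouse (264.89 CPM). Pycard fell by 0.56 ± 0.16 on the log2 scale in fat-1 mice, 1.47-fold (edgeR adjusted p = 0.0135), against -0.25 ± 0.18 in WT mice (edgeR adjusted p = 0.55). This was the call that least held: without fat-1 PF mouse 3 the value was -0.42 (edgeR adjusted p = 0.0581), and without fat-1 EtOH mice 3 and 4 it was -0.35 (edgeR adjusted p = 0.0809). The value averaged over genotypes was -0.40 ± 0.12 (edgeR adjusted p = 0.0181) and -0.37 without WT EtOH mouse 1 (edgeR adjusted p = 0.0545). Without fat-1 EtOH mice 3 and 4 and WT EtOH mouse 2 it was -0.30 (edgeR adjusted p = 0.0577). Without all 5 libraries that stood apart it was -0.39 (edgeR adjusted p = 0.0187).

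None of the 3 caspase genes passed the test. Casp1, which encodes the inflammasome protease (chr9:5298517-5307265), ranged from 149 to 226 CPM in PF mice and from 145 to 190.3 CPM in EtOH mice, with medians of 181 and 162. Casp8 (chr1:58795374-58847503) ranged from 111 to 209 CPM and from 107 to 198 CPM, with medians of 159 and 149.8. Casp4 (chr9:5308828-5336783), the lowest of the 3 per kilobase, ranged from 26.1 to 69.2 CPM in PF mice and from 19.2 to 52.4 CPM in EtOH mice, and its 2 lowest values, both 19.2 or 19.3, were those of fat-1 EtOH mice 3 and 4. The groups overlapped for all 3 in every comparison. In fat-1 mice the log2 fold changes were -0.14 ± 0.13 for Casp1 (edgeR adjusted p = 0.41), -0.45 ± 0.29 for Casp4 (edgeR adjusted p = 0.23) and -0.04 ± 0.19 for Casp8 (edgeR adjusted p = 0.88). In WT mice they were -0.12 ± 0.15, -0.06 ± 0.33 and -0.03 ± 0.22. With these errors, a 2-fold change of Casp1 or Casp8 lies outside 2 SE of either estimate. None of the 3 was called under any setting tried.

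**Figure D3:**
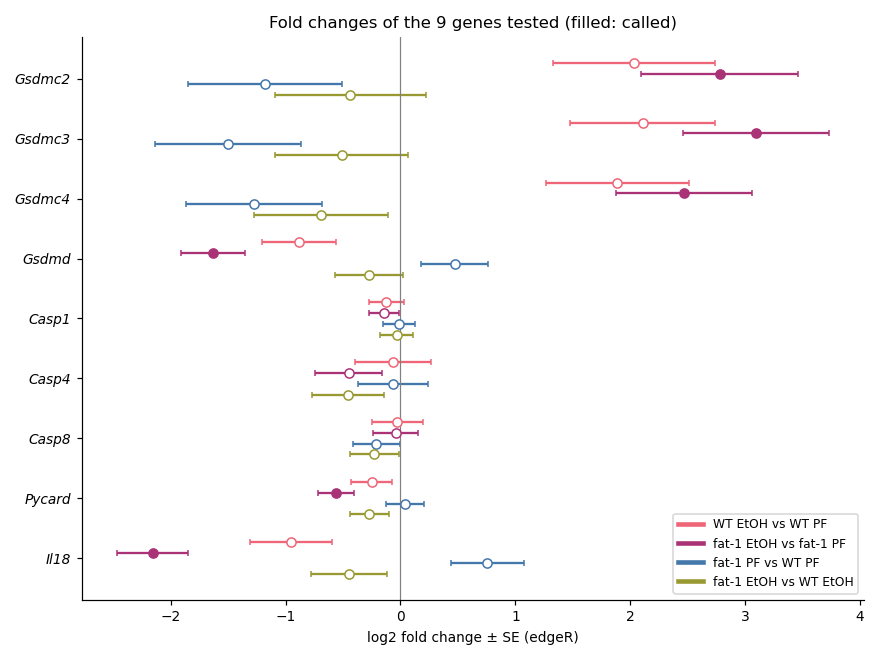
Log2 fold changes with their SE (horizontal axis) of the 9 genes tested (vertical axis) in 4 comparisons, shown by colour. Filled points were called by edgeR: 6 of 9 genes between the diets in fat-1 mice and none in the other comparisons. The WT diet points of Gsdmc2, Gsdmc3, Gsdmc4, Gsdmd and Il18 lie on the same side of 0 as the fat-1 ones.

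Between EtOH and PF in fat-1 mice, 6 of the 9 genes tested were called by edgeR, where 37.4% of all genes tested were: 3 of them higher (18.7% of all genes) and 3 lower (18.8%). The same 3 genes had groups that did not overlap with EtOH higher (10.6% of all genes), and the same 3 with EtOH lower (13.4%). The median log2 fold change of the 9 was -0.14, that of all genes tested 0.05. The count was 5 without fat-1 PF mice 2 and 4 (13.9% of all genes), 5 without fat-1 EtOH mice 3 and 4 (30.8%), and 4 without all 5 libraries (11.9%), namely Gsdmc3, Gsdmd, Il18 and Pycard. In the exact two-sided permutation test of log2(CPM + 0.5), each of the 6 had a p of 0.0159, the smallest that 5 against 4 mice can give, and 0.0595 after adjustment over 45 tests. Because the genes were chosen with earlier results of these data known, their counts and the shares of all genes are not an independent comparison.

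In WT mice edgeR called 0 of the 9 genes, where it called 0.0796% of all genes (0.00724% higher and 0.0724% lower). At an unadjusted p below 0.05 there were 5 (Gsdmc2, Gsdmc3, Gsdmc4, Gsdmd and Il18, where 14.1% of all genes were), DESeq2 called 0 (1.86% of all genes) and limma voom with quality weights called those 5, where voom called 20.3% of all genes. With only these 2 groups in the fit edgeR called 3, Gsdmc2, Gsdmc3 and Gsdmc4 (8.32% of all genes), and without the 5 libraries 4, those and Gsdmd (3.41%). EtOH and PF mice did not overlap for 3 genes that were higher (12.2% of all genes) and 2, Gsdmd and Pycard, that were lower (12.1%). The permutation test of 3 against 4 mice cannot go below 0.0571, the value all 5 of these had. The interaction, which tests whether the EtOH response differed between genotypes, called 0 of the 9 and 0% of all genes with edgeR, 1 at an unadjusted p below 0.05 (Il18, where 8.26% of all genes were), and 0 with DESeq2 or voom.

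Averaged over genotypes, EtOH against PF gave 6 calls of 9, where 35.9% of all genes were called: 3 higher (18.3%) and 3 lower (17.6%). The log2 values were 2.40 ± 0.49 for Gsdmc2, 2.60 ± 0.44 for Gsdmc3, 2.18 ± 0.43 for Gsdmc4, -1.26 ± 0.22 for Gsdmd and -1.55 ± 0.24 for Il18 (edgeR adjusted p of 0.0023 or less for each). Without the 5 libraries that stood apart edgeR again called 6 (27.6% of all genes), with 1.31 for Gsdmc2, 2.06 for Gsdmc3, 1.39 for Gsdmc4, -1.04 for Gsdmd and -1.49 for Il18. All 8 EtOH mice lay above all 8 PF mice for the 3 Gsdmc genes, which held for 3.13% of all genes, and below them for Gsdmd, which held for 4.66%. The exact permutation p of these 4 genes was 1.554e-04, the smallest that 8 against 8 mice can give, and 0.0017 after adjustment.

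Between the genotypes, no gene of the set was called. In PF mice, 0 of 9 were called by edgeR (0% of all genes), DESeq2 (1.37%) or voom (0.224%), and 3 had an unadjusted edgeR p below 0.05 (12.7% of all genes). Il18 was higher in all fat-1 PF than in all WT PF mice, which 4.25% of genes were (2.62% were lower in all), with a log2 fold change of 0.76 ± 0.32 (edgeR adjusted p = 0.34). The exact permutation p of Il18 was 0.0286, the smallest possible, and 0.0989 after adjustment. The others were Gsdmc3 at -1.50 ± 0.64 (edgeR adjusted p = 0.35) and Gsdmc4 at -1.27 ± 0.59 (edgeR adjusted p = 0.39), whose groups overlapped through fat-1 PF mouse 3. Without that mouse Gsdmc3 was at -2.73 with an edgeR adjusted p of 0.0424, where 0.826% of all genes were called. In EtOH mice, 0 of 9 were called by edgeR (0.00724% of all genes), DESeq2 (0.0362%) or voom (0.00724%). At an unadjusted edgeR p below 0.05 there were 0 (4.86% of all genes), and 0 had groups that did not overlap, where the groups did not overlap in 1.43% (fat-1 higher) and 1.02% (fat-1 lower). The log2 differences between fat-1 EtOH and WT EtOH ran from -0.69 ± 0.58 (Gsdmc4) to -0.03 ± 0.14 (Casp1). The 4 pairwise comparisons share their groups, so that these genotype values and the diet values above are not independent of each other.

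Markers of gut position and of muscle also differed between the diets in fat-1 mice. Of 8 proximal small intestine genes, edgeR called 7 lower and 1 higher with EtOH in fat-1 mice, and 3 lower in WT mice. Of all genes, 18.8% were called lower and 18.7% higher in fat-1 mice and 0.0724% lower in WT mice. These are the shares to set beside each list in this paragraph. On the PF diet their summed level was 319 to 3534 CPM in WT and 1883 to 11334 CPM in fat-1 mice, and on EtOH 137 to 208 CPM in WT and 141 to 192 CPM in fat-1 mice. The 2 libraries with the highest proximal sums, fat-1 PF 2 and 4, had the lowest Gsdmc levels and the highest Gsdmd levels of all 16, and fat-1 PF 2 the highest Il18 level. The other PF libraries did not follow this order. WT PF mouse 1 and fat-1 PF mouse 1 had proximal sums of 3534 and 3536 CPM and Gsdmc sums of 164 and 63.4 CPM. WT PF mouse 4, with the lowest proximal sum (319 CPM), had a Gsdmc sum of 144 CPM. Of 7 large intestine genes, 4 passed the filter (Hoxb13, Hoxd10 and Hoxd11 did not), and all 4 were called higher with EtOH in fat-1 mice. Their sums were 27.4 to 86.8 CPM (WT) and 12.8 to 24.5 CPM (fat-1) on the PF diet, and 42.3 to 4421 CPM (WT) and 38.7 to 12459 CPM (fat-1) on EtOH. The 3 EtOH libraries with high large intestine sums held the 3 highest Gsdmc sums, WT EtOH mouse 1 following at 571 CPM, and fat-1 EtOH mice 3 and 4 held the lowest Gsdmd levels. WT EtOH mouse 2, the third of these libraries, held the highest Gsdmd (363.61 CPM) and Il18 (60.04 CPM) levels of the 8 EtOH mice. All 6 smooth muscle genes were called higher in fat-1 EtOH mice, with sums of 906 to 1434 CPM in PF and 1859 to 4042 CPM in EtOH mice. No marker of these lists was at 0 in every library, and the part of any of them in the gasdermin values was not tested. Leaving out the libraries that stood apart cannot separate diet from the proximal genes. The summed level of those genes was 319 to 3536 CPM in the PF libraries kept and 137 to 190 CPM in the EtOH libraries kept, still without overlap.

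**Figure D4:**
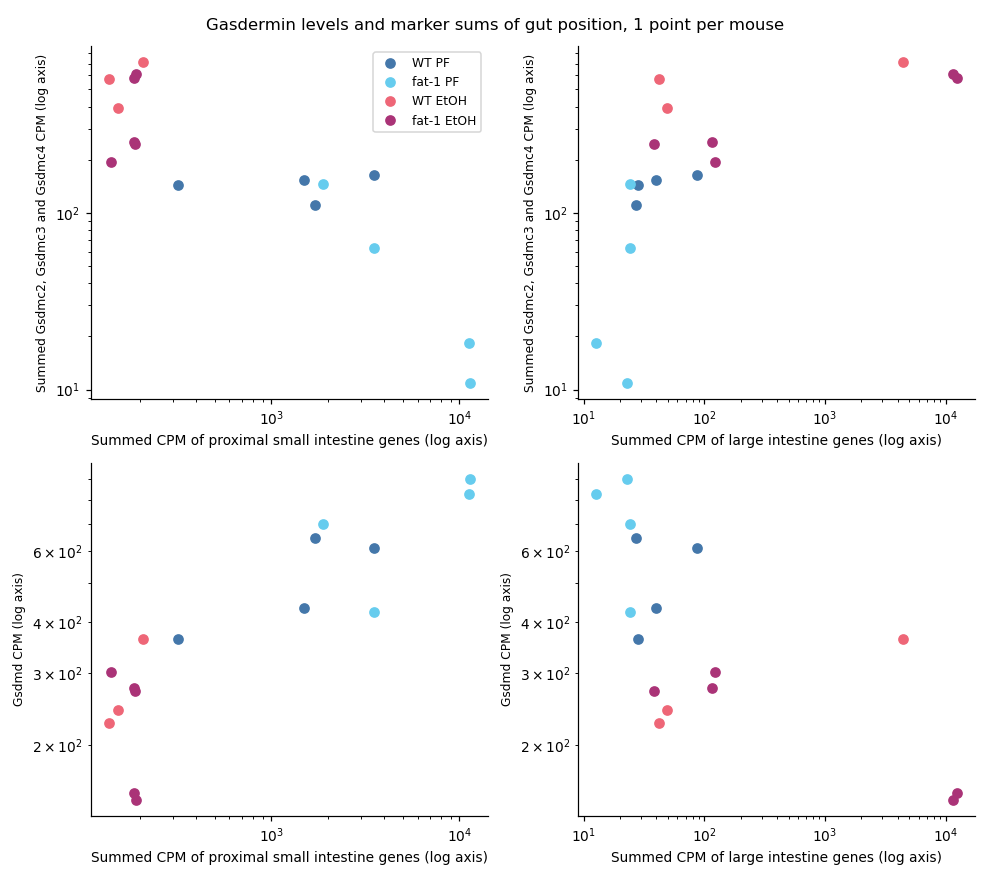
Summed CPM of Gsdmc2, Gsdmc3 and Gsdmc4 (upper panels) and CPM of Gsdmd (lower panels) against the summed CPM of proximal small intestine genes (left) and large intestine genes (right), all on log axes. Each point is 1 mouse, coloured by group. The EtOH mice lie at proximal sums of 137 to 208, left of all PF mice, and 3 EtOH mice lie far to the right in large intestine sums.

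Other marker lists were counted in the same way. Of 10 epithelial genes, 2 were called higher and 2 lower in fat-1 mice, where 37.4% of all genes were called (18.7% higher and 18.8% lower), which is the share to set beside each of these lists, and of 6 ileal genes of bile acid handling 1 was called higher. The summed level of the latter was 491 and 439 CPM in fat-1 PF mice 2 and 4, 1083 and 2058 CPM in fat-1 EtOH mice 3 and 4 and 2496 to 8304 CPM elsewhere. The Paneth cell sum was 92.0 and 75.3 CPM in fat-1 EtOH mice 3 and 4 and 3429 to 16841 CPM elsewhere. Of 7 tuft cell genes, 6 were tested and 2 were called higher in fat-1 EtOH mice, and of 7 goblet cell genes 4 were called higher and 1 lower. Averaged over genotypes, 4 tuft cell genes were called higher, and 2 goblet cell genes higher and 1 lower (18.3% of all genes higher and 17.6% lower). In WT mice 4 tuft cell genes and 1 goblet cell gene had an unadjusted edgeR p below 0.05 (14.1% of all genes). No macrophage, T cell or Paneth cell gene was called in either diet comparison by edgeR, and 2 T cell genes had an unadjusted p below 0.05 in fat-1 mice. The fat-1 EtOH mouse 5, whose B cell sum was 486 CPM against 1.96 to 97.9 CPM elsewhere, had the lowest Gsdmc sum (194 CPM) and the highest Gsdmd level (303 CPM) of its group. Its macrophage sum was 764 CPM against 115 to 360 CPM elsewhere, and its T cell sum 181 CPM against 11.9 to 53.8 CPM elsewhere.

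The wider pathway was followed in 7 lists of 70 genes, of which 59 passed the filter. Between the diets in fat-1 mice, edgeR called 22 of the 59, 8 higher and 14 lower, a share of 37.3% beside 37.4% of all genes. This count was 17 without fat-1 EtOH mice 3 and 4 (28.8%, beside 30.8% of all genes), 7 without fat-1 PF mice 2 and 4 (11.9%, beside 13.9%) and 5 without all 5 libraries (8.47%, beside 11.9%). In these 4 fits the share of the pathway genes was below that of all genes, and the counts for the single lists that follow are to be read beside the same 37.4%. Of the 22, Aim2, Nek7, Il1rap, Il33, Tradd and Vps4a were among the 7 still called without fat-1 PF mice 2 and 4, and Aim2, Tnfrsf1a and Tradd among the 4 still called without all 5 libraries. When 1 library at a time was left out, 13 kept their call in all 16 fits. The other 9 lost it in 1 fit (Fadd), 2 (Naip1), 3 (Irf1), 5 (Casp2), 6 (Casp9 and Gzmb), 11 (Ninj1 and Stat6) or 12 (Irf2). In WT mice edgeR called 0 of the 59, with 6 at an unadjusted p below 0.05 (10.2%, beside 14.1% of all genes). DESeq2 called 1 there (1.69%, beside 1.86%), voom 11 (18.6%, beside 20.3%) and edgeR with only these 2 groups 8 (13.6%, beside 8.32%).

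Among sensors, 3 of 11 tested were called in fat-1 mice, all higher. These were Aim2, which detects DNA in the cytosol, at 2.39 ± 0.40, Nek7, the partner of NLRP3, at 0.89 ± 0.17 and Naip1, a sensor of bacterial secretion systems, at 0.77 ± 0.23 on the log2 scale. Aim2 ranged from 3.09 to 8.37 CPM in the fat-1 PF mice and from 16.6 to 52.1 CPM in the fat-1 EtOH mice, with no overlap. Nlrp1a, Nlrp3, Nlrp10 and Nlrp12 did not pass the filter. Of the other gasdermins, Gsdme and Gsdma were tested and not called, at 0.97 ± 0.67 and 0.33 ± 0.36, and Gsdma2, Gsdma3 and Pjvk did not pass the filter.

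Of 6 other caspases tested, 3 were called lower in fat-1 mice. Among them were Casp6, an executioner of apoptosis, at -2.83 ± 0.59, and Casp9, the apoptosome caspase, at -0.43 ± 0.15. Casp6 was at 297 and 230.5 CPM in fat-1 PF mice 2 and 4 and at 81.5 and 39.2 CPM in the other fat-1 PF mice, and without mice 2 and 4 its log2 fold change was -1.41 (edgeR adjusted p = 0.0999). Casp9 was at -0.18 in that fit (edgeR adjusted p = 0.37). Casp2 was called higher, at 0.67 ± 0.24, with 112 and 118 CPM in fat-1 EtOH mice 3 and 4 against 51.4 to 59.4 CPM in the other fat-1 EtOH mice and 37.2 to 58.0 CPM in fat-1 PF mice. Without fat-1 EtOH mice 3 and 4 it was at 0.18 (edgeR adjusted p = 0.31). Casp14 did not pass the filter. Among 10 genes of death receptor signalling and necroptosis, 3 were called, all lower: the TNF receptor gene Tnfrsf1a at -0.96 ± 0.25 and the adaptors Tradd at -0.63 ± 0.15 and Fadd at -0.43 ± 0.13.

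Of 10 IL-1 and IL-18 family genes tested, 3 were called higher in fat-1 mice, namely Il1rn, the receptor antagonist, at 2.10 ± 0.51, the receptor Il1r1 at 1.34 ± 0.33 and its partner Il1rap at 0.94 ± 0.22. Il1rn was at 23.1 and 16.1 CPM in fat-1 EtOH mice 3 and 4, at 3.80 to 4.70 CPM in the other fat-1 EtOH mice and at 1.82 to 3.44 CPM in fat-1 PF mice. Without fat-1 EtOH mice 3 and 4 Il1rn was at 0.87 (edgeR adjusted p = 0.0205) and Il1r1 at 0.70 (edgeR adjusted p = 0.0340). Il33, an alarmin, was called lower at -2.45 ± 0.42, with 28.8 to 66.03 CPM in the fat-1 PF mice against 4.43 to 19.5 CPM in the fat-1 EtOH mice. The genes of the IL-18 receptor and its decoy, Il18r1, Il18rap and Il18bp, were not called in any comparison, and Il1a did not pass the filter. Among 8 genes of membrane rupture, granule proteases and repair, Ninj1, which tears the membrane in lytic death, was called higher at 0.49 ± 0.18, whereas the granzyme genes Gzma (-1.65 ± 0.47) and Gzmb (-1.36 ± 0.46) and the membrane repair gene Vps4a (-0.30 ± 0.07) were called lower. Elane and Ctsg did not pass the filter.

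Of 12 regulators, 4 were called in fat-1 mice, all lower. They were Il13ra1, a receptor subunit for IL-13, at -0.66 ± 0.18, the interferon regulatory factors Irf1 at -0.48 ± 0.15 and Irf2, a known activator of Gsdmd, at -0.34 ± 0.13, and Stat6 at -0.33 ± 0.13.

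**Figure D5:**
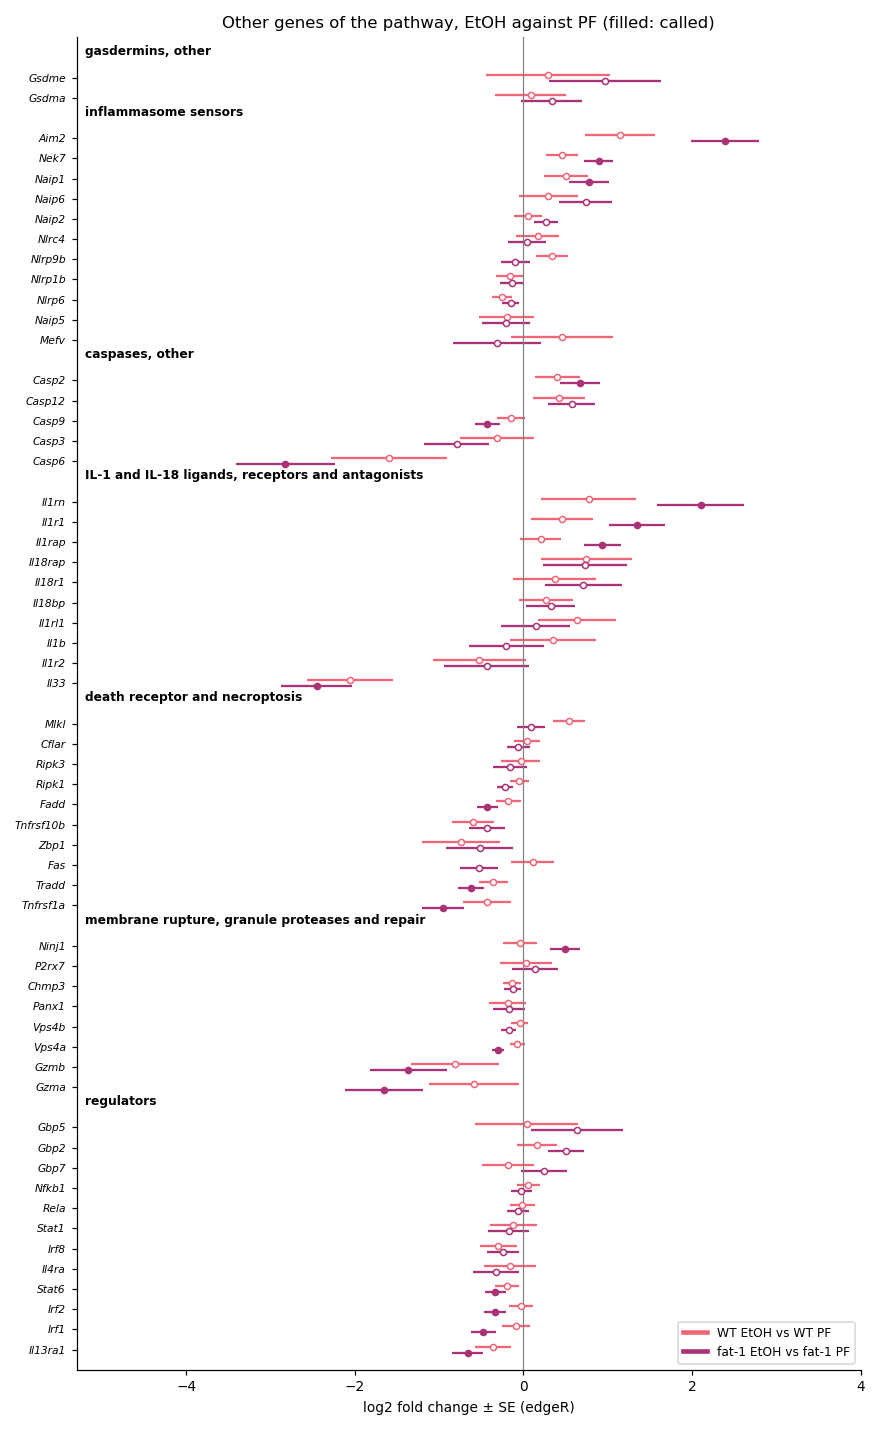
Log2 fold changes with their SE (horizontal axis) of other pathway genes tested (vertical axis, grouped by list) for EtOH against PF in WT and in fat-1 mice, shown by colour. Filled points were called by edgeR, and all of these are fat-1 points. Casp6, Il33 and Gzma lie far to the left and Aim2 and Il1rn far to the right in fat-1 mice.

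Across the 16 libraries, the levels of the set fell into groups that moved together, given here as a description over libraries that share diet and gut position. On the log2 CPM scale Pearson's r was 0.96 to 0.99 among Gsdmc2, Gsdmc3 and Gsdmc4, 0.95 between Gsdmd and Il18, and -0.84 to -0.80 between Gsdmd and the Gsdmc genes. Of all genes tested, the 5 closest to the summed Gsdmc level included Dpp10 (r = 0.972), Mctp2 (0.962), Hoxb7 (0.959) and Hoxb9 (0.958). Hoxb9 was at 0.245 to 26.3 CPM in PF and 47.6 to 100.3 CPM in EtOH mice. The 5 closest to Gsdmd were Ifi35 (0.987), Ift20 (0.983), Pfn1 (0.979), Cyb5a (0.976) and Zdhhc7 (0.973). Ifi35 was at 79.3 to 194 CPM in PF and 32.7 to 63.9 CPM in EtOH mice.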

How the data were processed

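RNA of the ileum of 16 mice was measured by stranded poly(A) RNA-seq. The authors aligned reads to mm10 with tophat2 (2.0.13, Ensembl 82), counted them by gene with htseq and deposited these raw counts. The settings of the counting are not given in the sources used here. No column was pooled, and no row lacked a gene.

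Counts were analysed with edgeR 4.0.16 in R 4.3.3: filterByExpr on the 4 groups, TMM, and a robust quasi-likelihood fit with 1 mean per group over all 16 libraries, tested on simulated data. P-values were adjusted by Benjamini-Hochberg over the 13811 genes tested, and a gene was called at 0.05 or less. The study's cuffdiff2 cannot be run on counts. Single genes were also compared with an exact two-sided permutation test of log2(CPM + 0.5), 45 tests in all. CPM use the TMM-scaled library size. Symbols, positions and exon lengths are those of GENCODE M21 (GRCm38). 26 genes had no symbol.

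Alternatives were DESeq2 1.42.0, limma 3.58.1 (voom with quality weights), other scalings, other filters, fits of 2 groups alone, a block for the replicate number, and leaving out libraries one at a time or those with large intestine genes and, chosen after seeing the data, those with proximal genes. Named are all 10 genes, up to 4 called genes of each pathway list, genes of a list that failed the filter where they were 5 or fewer, and the 5 genes most like the Gsdmc sum and Gsdmd, save 2 genes that are not reported here. Genes and lists were chosen with earlier results of these data known. Figures were drawn with matplotlib 3.10.9.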

Additional observations from a re-analysis of the deposited data

Results flagged for a closer look

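The level of Gsdmc3 in WT PF mice had 1 mouse far from the others: 11.997 CPM in mouse 2 against 17.9 to 18.9 CPM in the other 3, a gap of 0.851 of the whole range of the group, where the limit for 4 mice is 0.829. This was the only 1 of 27 such sets of values tested that passed its limit, and chance alone passes about 1 in 20. Mouse 2 also had the lowest WT PF level of Gsdmc2 (39.2 CPM) and of Gsdmc4 (59.6 CPM).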

How the results depend on the processing

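Between the diets in fat-1 mice, Gsdmc3, Gsdmd and Il18 were called in every fit that held them, while Pycard was lost in 5 fits, Gsdmc2 in 2 and Gsdmc4 in 1. The filter of at least 10 counts in every library leaves out Gsdmc3. The count of called genes in WT EtOH vs WT PF, 0 in the reported fit, was 3 when only those 2 groups were fitted (8.32% of all genes called), 5 with limma voom (20.3%) and 4 without the 5 libraries that stood apart (3.41%). In fat-1 PF vs WT PF the count was 0 to 1 when 1 library was left out, where 0 to 0.826% of all genes were called. The causes of these changes were not tested. With the replicate number as a block the counts were 6 in fat-1 mice (34.4% of all genes) and 6 averaged over genotypes (35% of all genes), and 0 in the other 4 comparisons (0.13% of all genes between the diets in WT mice and 0 in the rest). Whether same-numbered mice were feeding pairs is not given in the sources used here. Their deviations correlated at -0.0225 on average over 21 pairs from any 2 groups, against 0.00703 over 74 other pairs. As these pairs include mice on the same diet, the values cannot tell whether feeding pairs shared a number. Of 1488 values of single genes compared, 93 changed sign, none of them in a called result. The low counts of Gsdmc3 in fat-1 PF mice limit its fold change, and groups of 3 to 5 mice limit all comparisons.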
